A study of Saccharomyces cerevisiae with 91 samples.

Results

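The 8 protein genes of yeast mitochondrial DNA were followed through Micro-C data of Saccharomyces cerevisiae. They are COX1 (Q0045), COX2 (Q0250), COX3 (Q0275), COB (Q0105), ATP6 (Q0085), ATP8 (Q0080), OLI1 (Q0130) and VAR1 (Q0140), taken by identifier from the deposited gene compaction tables, and make up 8 of the 6644 rows listed there. A further 20 rows carry mitochondrial identifiers and 6577 rows are nuclear genes. In Micro-C, formaldehyde-fixed chromatin is cut with micrococcal nuclease (MNase), neighbouring ends are ligated, and read pairs report which pieces of DNA lay next to each other. The gene tables give each row a short-fragment and a long-fragment signal, and a score derived from both. The sources used here do not say what separates long from short.

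Mitochondrial DNA is packed by the HMG-box protein Abf2 and carries no histones, so none of its contacts are between nucleosomes. It codes for a small set of inner-membrane subunits that are built in the organelle and joined there to partners imported from the cytosol. Cox1, Cox2 and Cox3 form the catalytic core of cytochrome c oxidase (complex IV), Cob is the cytochrome b of complex III, and Atp6, Atp8 and Oli1 (Atp9) are parts of the membrane sector of ATP synthase. Var1 is a protein of the small mitochondrial ribosomal subunit. COX1 and COB are mosaic genes whose introns hold reading frames for maturases and endonucleases. Cells can lose mitochondrial DNA and still live by fermentation.

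The labels give growth in rich medium (YPD) to mid-log phase at 30 °C before any treatment, and name ssu72-2 with 32 °C. The table of the 30 to 32 °C groups has 12 columns. These are BY4741 cells given 1.5 mM diamide (a thiol oxidant) for 30 min, BY4741 cells given 3 ug/mL thiolutin (a transcription inhibitor) for 45 min, the deletion strains med1d, rtt109d, rnh201d, rpd3d and top1d, the temperature-sensitive allele ssu72-2 at 32 °C, the histone H4 mutants H4d4-14, H4K16Q and H4R23A, and untreated wild-type BY4741. The table of the 37 °C groups has 5 columns, each kept at 37 °C for 90 min. They are the temperature-sensitive alleles rgr1-100 (rgr1-97 in its strain label), rsc8-21, scc2-4 and sth1-2, and BY4741. A strain with wild-type histones on an H3/H4 plasmid was labelled but has no column in these tables, so the H4 mutation and the plasmid background cannot be told apart against BY4741. Beyond temperature and allele, the labels do not say how the backgrounds of the other mutants relate to BY4741.

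Each column was taken, from its name and the sample titles, to pool the libraries of its group. By title these number 20 for wild type at 30 °C and 2 to 5 for the others. No column has a replicate spread. No test was made, and a difference is given as past or short of 2-fold with the counting interval of its read pairs. These 95% intervals cover counting error only. They are exact, except those on differences in the long-to-short ratio, which are normal approximations on the log2 scale. The short pairs of a column summed to between 6268645 and 86007371 over all rows. A level is the number of short pairs of a gene over that of the median nuclear gene in the same column. In its own column, the deleted gene stood at 6.96% (MED1), 0.84% (RTT109) and 4.87% (RNH201) of its wild-type level. RPD3 stood at 89.6% in the libraries labelled rpd3d and TOP1 at 49.8% in those labelled top1d, which goes against both labels. HHF1, a chromosomal gene of histone H4, stood at 13.6% in H4d4-14, 8.27% in H4K16Q and 1.34% in H4R23A. The 2 sheets of the 37 °C table hold each other's signal and were exchanged. The sheet named long was 0 in 2.61% of nuclear windows of 330 bp or less, and the sheet named short in 90.6% of them.

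In RefSeq (assembly R64, which sacCer3 holds), all 8 genes lie on chromosome MT. COX1 spans chrMT:13818-26701 and COB chrMT:36540-43647, both with introns in the span. ATP8 (chrMT:27666-27812) and ATP6 (chrMT:28487-29266) follow COX1. OLI1 lies at chrMT:46723-46953, VAR1 at chrMT:48901-50097, COX2 at chrMT:73758-74513 and COX3 at chrMT:79213-80022. The tables give each of the 8 a window 99 bp longer than its RefSeq span, and nuclear genes a window longer by a median of 237 bp.

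In wild-type cells at 30 °C, most of the mitochondrial genes gave short-fragment signal at about the density of a nuclear gene. COX1 had 126336 short pairs, a level of 12.6 (95% interval 12.5 to 12.7), and COB had 55399 pairs, a level of 5.53. COX3 stood at 1.26, COX2 at 0.970, ATP6 at 0.794 and OLI1 at 0.242. These levels largely follow the length of the window.

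Per kb of window, with the nuclear median per kb as 1, COX3 was highest at 1.76, followed by COX2 at 1.43, COX1 at 1.23, ATP6 at 1.14, COB at 0.970 and OLI1 at 0.925. These 6 genes lay between the 41.8th and the 95.3rd percentile of nuclear genes. ATP8, with 421 pairs, reached only 0.216 per kb, and VAR1, with 963 pairs, only 0.0937. VAR1 was below all but 1.31% of nuclear genes per kb, and below all but 0.207% of the 1447 nuclear genes within 20% of its length. ATP8 stood at 0.621 of the median of the 227 nuclear genes of its length, where a short window by itself lowers the number of pairs. The same limit holds for OLI1, whose window has 330 bp. It stood at 1.74 times the median of the 283 nuclear genes of its length, above 83% of them.

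**Figure D1:**
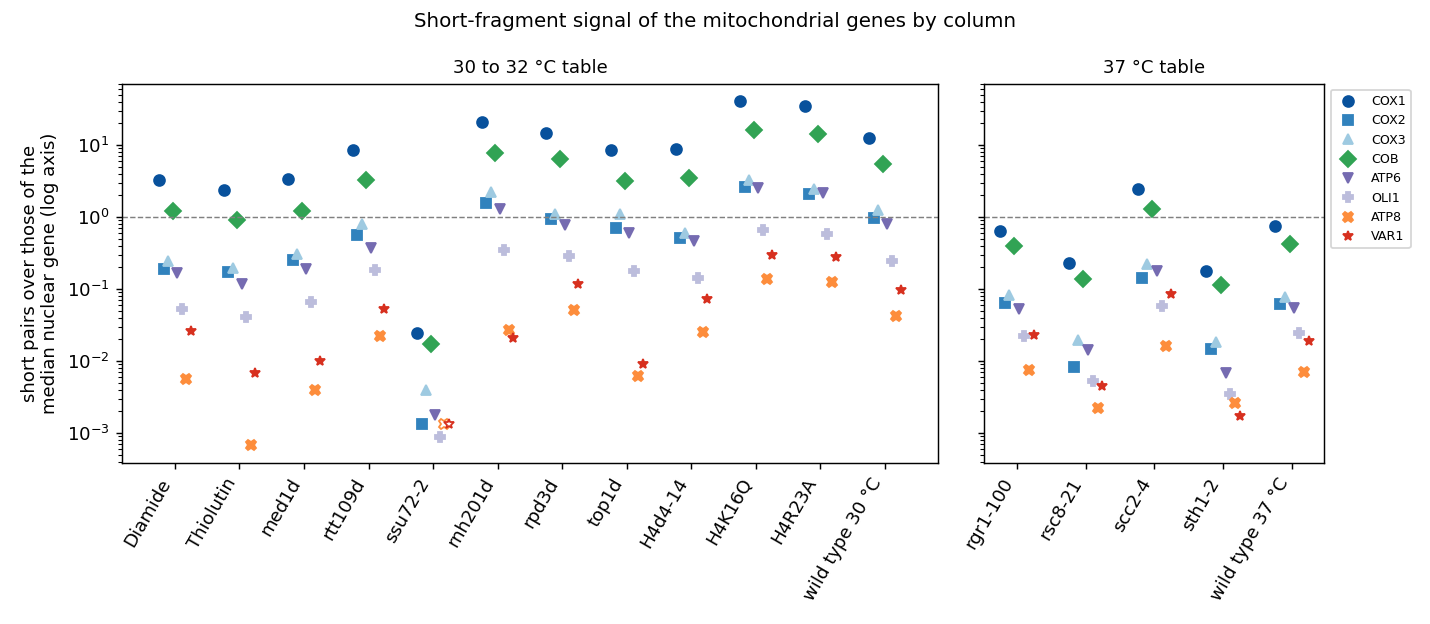
Short pairs of each mitochondrial gene over those of the median nuclear gene (dashed line at 1, log axis), by pooled column, in the 30 to 32 °C table (left) and the 37 °C table (right). Open symbols stand at 3 pairs where a gene had 0. The 8 genes keep a similar order in most columns, COX1 runs from 0.0247 in ssu72-2 to 41.1 in H4K16Q, and all 5 columns at 37 °C lie low.

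Across the 30 °C table, the mitochondrial signal varied widely. In its comparisons with wild type, the 5th percentile of nuclear genes was never below -0.42 in log2 and the 95th never above 0.45. COX1 stood at 3.23 in diamide, 2.36 in thiolutin, 3.33 in med1d, 8.58 in rtt109d, 0.0247 in ssu72-2, 21.0 in rnh201d, 14.5 under the rpd3d label, 8.41 under the top1d label, 8.77 in H4d4-14, 41.1 in H4K16Q and 34.3 in H4R23A, against 12.6 in wild type. COX2, in the same order, stood at 0.192, 0.171, 0.252, 0.556, 0.00132, 1.59, 0.933, 0.714, 0.508, 2.63 and 2.11, against 0.970 in wild type. Both cytochrome oxidase genes were thus highest in the 2 point mutants of H4, lowest in ssu72-2, and low in both treatments and in med1d. In bulk samples, fewer mitochondrial genomes per cell and less signal per genome cannot be told apart.

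The ssu72-2 column held almost no mitochondrial pairs. SSU72 codes for a phosphatase of the RNA polymerase II tail. At 32 °C, COX1 had 56 short pairs, COB 39, COX3 9, ATP6 4, COX2 3, OLI1 2 and ATP8 and VAR1 0 each, while the median nuclear gene had 2265. In wild type, the same genes had between 421 (ATP8) and 126336 (COX1) pairs, with 10018 in the median nuclear gene. The level of COX1 was 510-fold lower in ssu72-2 (interval 393 to 675), and that of COB 321-fold lower (235 to 452). COX2, with only 3 pairs, was 732-fold lower with an interval of 251 to 3553. ATP8 was at least 31.7-fold lower and VAR1 at least 72.6-fold lower, when 0 is read as 3 pairs. All 8 genes were past 2-fold lower, against 1.33% of 6540 nuclear genes with a mean of at least 20 pairs. The ssu72-2 group is labelled with 32 °C and wild type here with 30 °C, so allele and temperature cannot be told apart in these tables. A wild-type library at 32 °C was labelled but has no column of its own.

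Diamide, thiolutin and med1d each had lower signal at all 8 genes. COX1 had 4006 pairs in diamide and was 3.91-fold lower than in wild type (3.79 to 4.04). COB was 4.60-fold lower, ATP6 4.74-fold, OLI1 4.55-fold, COX2 5.06-fold and COX3 5.08-fold lower. The 6 genes other than VAR1 and ATP8 fell within 0.38 of each other on the log2 scale, from -2.35 to -1.97. Past 2-fold lower were 8 of 8 mitochondrial genes in diamide, against 1.15% of nuclear genes.

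Thiolutin gave the lowest level of COX1 after ssu72-2, with 3495 pairs and a level 5.34-fold lower than in wild type (5.17 to 5.53). The 6 genes lay between -2.76 (ATP6) and -2.42 (COX1) in log2. VAR1 had 10 pairs in thiolutin against 963 in wild type and was 14.2-fold lower (7.71 to 29.8). ATP8 had a single pair and was 62.2-fold lower, with an interval of 11.1 to 2464. All 8 were past 2-fold lower, against 1.18% of nuclear genes.

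In med1d, which lacks a Mediator subunit, COX1 was 3.79-fold lower than in wild type (3.66 to 3.92) and COB 4.51-fold lower (4.26 to 4.78). The 6 genes lay between -2.17 (COB) and -1.88 (OLI1) in log2. ATP8, with 4 pairs, was 10.6-fold lower (4.09 to 38.9) and VAR1, with 10 pairs, 9.66-fold lower (5.23 to 20.2). Again 8 of 8 were past 2-fold lower, against 0.398% of nuclear genes.

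H4K16Q and H4R23A had more mitochondrial signal than wild type. H4K16Q replaces a tail lysine whose acetylation opens chromatin, and H4R23A replaces an arginine at the base of the tail. COX1 had 60854 pairs in H4K16Q and a level 3.26-fold higher than in wild type (3.23 to 3.29). The other genes there were between 2.59-fold (COX3) and 3.28-fold (ATP8) higher. VAR1, the most sparsely covered gene, was 3.07-fold higher (2.73 to 3.44), within the range of the others. All 8 were past 2-fold higher, against 0.321% of nuclear genes. H4K16Q had 1 replicate, in 2 libraries, by its labels.

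COX1 in H4R23A was 2.72-fold higher than in wild type (2.70 to 2.75), COB 2.59-fold and COX2 2.17-fold higher. COX3 reached 1.94-fold (1.89 to 2.00) and was the gene that stayed short of 2-fold. The count was 7 of 8, against 0.0306% of nuclear genes. Deletion of the H4 tail did not go the same way. In H4d4-14, COX1 was 1.44-fold lower (1.42 to 1.46) and COX3 2.13-fold lower (2.01 to 2.27), and COX3 was the 1 of 8 past 2-fold, against 0.153% of nuclear genes.

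**Figure D2:**
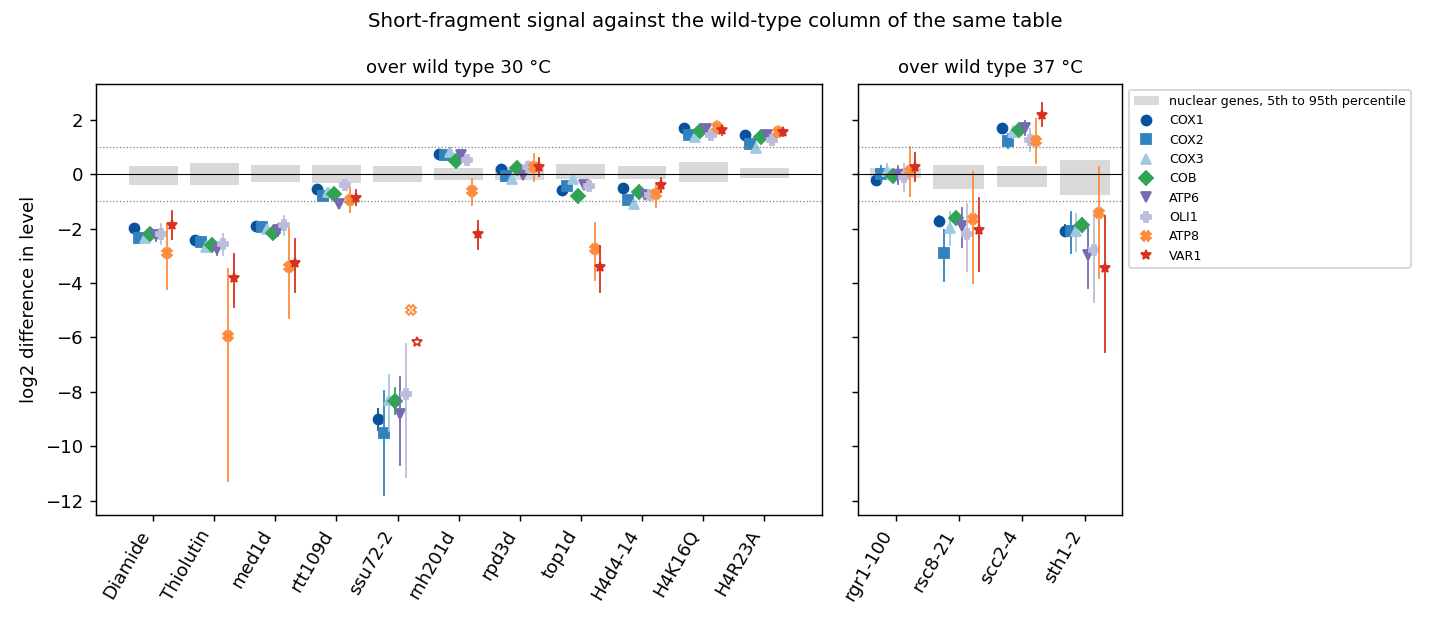
Log2 difference in short-fragment level of each mitochondrial gene over the wild-type column of the same table, with 95% counting intervals, and the 5th to 95th percentile of nuclear genes as grey bands. Open symbols are bounds at 0 pairs, and dotted lines mark 2-fold. The genes move as a block in most columns, while VAR1 and ATP8 lie below the other 6 in thiolutin, med1d, rnh201d and top1d.

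Smaller differences were seen in rtt109d and under the rpd3d label. Without Rtt109, which acetylates newly deposited histone H3, COX1 was 1.47-fold lower than in wild type (1.45 to 1.49), and all 8 genes were lower, from -1.10 (ATP6) to -0.41 (OLI1) in log2. ATP6 was the 1 gene past 2-fold, against 0.428% of nuclear genes. In the libraries labelled rpd3d, the genes lay between -0.20 (COX3) and 0.28 (VAR1) in log2. COX1 stood at 14.5 there and at 12.6 in wild type. None of the 8 was past 2-fold, against 0.0917% of nuclear genes in either direction.

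As in thiolutin and med1d, VAR1 and ATP8 parted from the other genes in the rnh201d column and in that labelled top1d. RNH201 codes for the catalytic subunit of RNase H2, which removes ribonucleotides from DNA. In rnh201d, the 6 other genes were higher than in wild type, COX1 1.66-fold (1.64 to 1.68), COB 1.40-fold and COX3 1.75-fold. VAR1 instead had 34 pairs against 963 in wild type and was 4.60-fold lower (3.27 to 6.68), and ATP8, with 44 pairs, was 1.55-fold lower (1.14 to 2.17). VAR1 was the 1 gene past 2-fold, against 0.0612% of nuclear genes lower.

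Type I topoisomerase is the product of TOP1. In the libraries labelled top1d, the 6 genes were modestly lower, from -0.80 (COB) to -0.18 (COX3) in log2. VAR1 had 13 pairs and was 10.7-fold lower than in wild type (6.21 to 20.1), and ATP8 had 9 pairs and was 6.74-fold lower (3.52 to 14.8). Those 2 were the genes past 2-fold lower, against 0.0612% of nuclear genes.

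As a share of the 8 genes' short pairs, VAR1 made up 0.061% in rnh201d (0.0423 to 0.0852), 0.0634% in top1d, 0.185% in med1d and 0.178% in thiolutin, against 0.446% in wild type (0.418 to 0.475). In the other columns of that table except ssu72-2, its share lay between 0.381% (rtt109d) and 0.519% (diamide). In ssu72-2 VAR1 had 0 of 113 pairs, where 3 pairs would make 2.65% and the exact 95% limit is 3.21%. ATP8 made up 0.079% in rnh201d and 0.0439% in top1d, against 0.195% in wild type. The shares of both genes in rnh201d and top1d lay outside the wild-type intervals.

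Relative to the pooled pairs of the other 6 genes, VAR1 was 7.35-fold lower in rnh201d than in wild type (5.22 to 10.7), 7.07-fold lower in top1d (4.12 to 13.3), 2.42-fold in med1d (1.31 to 5.07) and 2.52-fold in thiolutin (1.37 to 5.28). ATP8 was 2.48-fold lower in rnh201d (1.82 to 3.47), 4.47-fold in top1d (2.33 to 9.84), 2.65-fold in med1d (1.03 to 9.77) and 11.03-fold in thiolutin (1.97 to 436.6), the last on a single pair. In these 4 columns, 9 further mitochondrial rows of 240 to 504 bp that have an identifier but no gene name in the tables or in RefSeq were lower as well. Their summed pairs were 6.35-fold lower in rnh201d (4.88 to 8.41), 6.16-fold in top1d (4.05 to 9.87), 4.47-fold in med1d (2.26 to 10.4) and 3.10-fold in thiolutin (1.77 to 6.01), on the same scale. In some other columns these rows differed more from wild type than VAR1 and ATP8 did. On that scale they were 1.65-fold higher in rtt109d (1.47 to 1.86), 1.65-fold in rpd3d (1.40 to 1.92), 1.46-fold in H4d4-14 (1.27 to 1.66) and 1.39-fold in H4R23A (1.29 to 1.50). VAR1 and ATP8 stood there between 0.813 and 1.16 times their wild-type value. In diamide these rows were 1.49-fold lower (1.03 to 2.26) and ATP8 1.77-fold lower (0.852 to 4.43), with VAR1 at 1.16 times its wild-type value. In rgr1-100 they were 1.69-fold higher (1.29 to 2.22), with VAR1 at 1.32 and ATP8 at 1.18 times wild type at 37 °C. In H4K16Q and H4R23A, both VAR1 and ATP8 kept within 1.13-fold of the other 6. Base composition was not tested here, since no genome sequence was used.

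**Figure D3:**
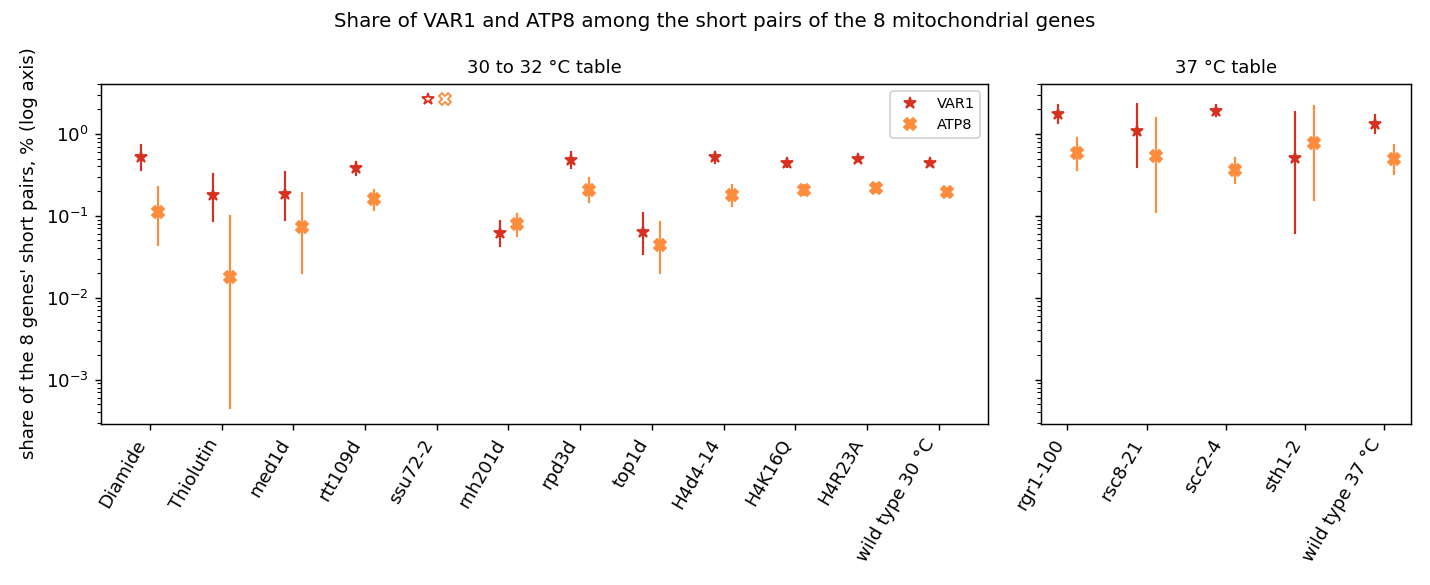
Share of VAR1 and of ATP8 in the short pairs of the 8 mitochondrial genes (per cent, log axis) by pooled column, with exact 95% intervals. Open symbols stand at 3 pairs for the 0 of ssu72-2. VAR1 is at 0.061% in rnh201d and 0.0634% in top1d, against 0.446% in wild type at 30 °C, and above 1% in 4 of the 5 columns at 37 °C.

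The nested rows of COX1 and COB gave the profile inside those genes. RefSeq starts the intron-encoded reading frames AI1 to AI5_ALPHA at the start of COX1, and BI2, BI3 and BI4 at that of COB. Each longer window thus adds a stretch. How pairs were counted per gene is not stated, so a pair gained with a stretch may reach into the windows before it. In wild type at 30 °C, the stretches of COX1 had 1.56 (AI1), 1.60 (AI2), 1.43 (AI3), 1.27 (AI4), 0.577 (AI5_ALPHA) and, for the rest of the gene, 0.851 times the nuclear median per kb. COB had 0.912 (BI2), 0.632 (BI3), 1.37 (BI4) and 0.903 in its last stretch. The stretch added by AI5_ALPHA was thus the lowest of COX1, and that added by BI3 the lowest of COB.

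In all 12 columns of the 30 °C table, the AI5_ALPHA stretch was the lowest of COX1, and BI3 the lowest of COB. In ssu72-2 these stretches had only 0 and 2 short pairs. The highest stretch of COX1 stood 2.78-fold above the lowest in wild type, 5.63-fold in med1d, 4.91-fold in diamide, 4.09-fold in top1d and 3.80-fold in rnh201d. In COB, it was 4.52-fold in top1d, 3.82-fold in med1d and 3.31-fold in rnh201d, against 2.16-fold in wild type. In H4K16Q the values were 2.93-fold for COX1 and 1.90-fold for COB. The BI3 stretch stood at 0.623 in rnh201d, next to 0.632 in wild type, although COB as a whole was higher in rnh201d. At 37 °C the pattern did not hold in every column. The lowest stretch of COX1 was the last in rsc8-21 (0.0172, with AI5_ALPHA at 0.0215). The lowest of COB was the last in scc2-4 (0.204, with BI3 at 0.220) and BI2 in sth1-2 (0.0155, with BI3 at 0.0169).

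**Figure D4:**
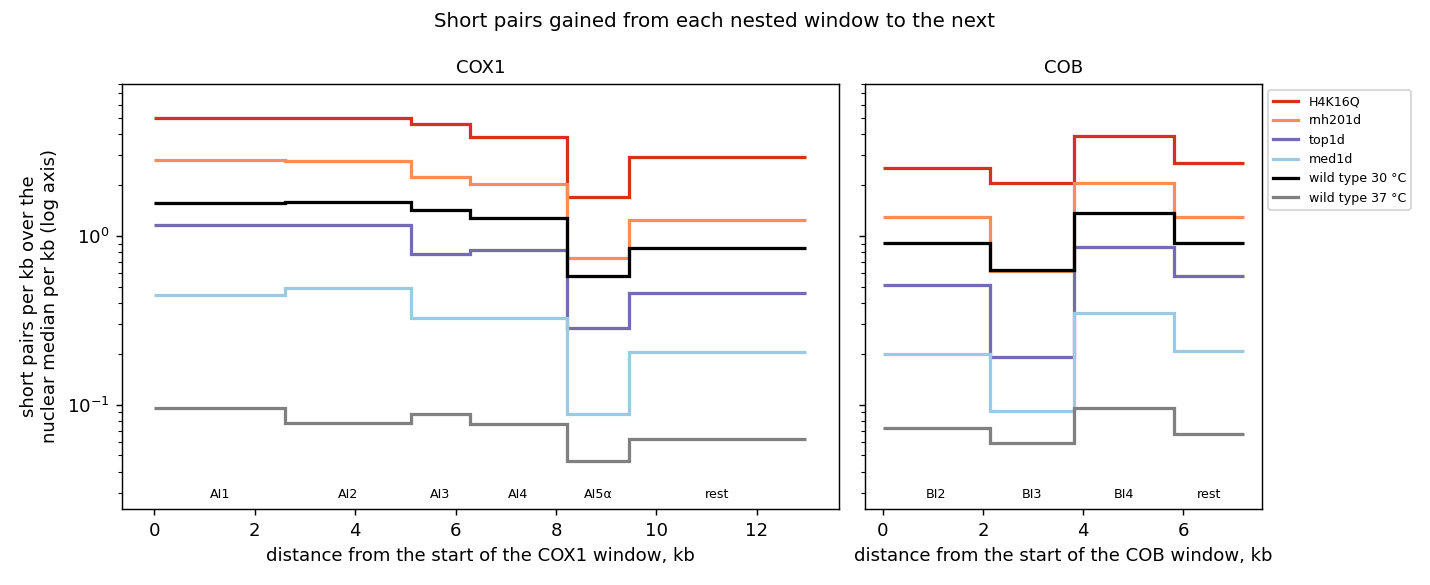
Short pairs per kb added by each nested window of COX1 (left) and COB (right), over the nuclear median per kb (log axis), against distance from the start of the window, in 6 of the 17 columns. The dips at AI5_ALPHA and BI3 recur in each column shown. Among these 6 columns the highest COB stretch stands furthest above the lowest in top1d, by 4.52-fold.

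At 37 °C the mitochondrial signal was low in all columns. COX1 stood at 0.648 in rgr1-100, 0.227 in rsc8-21, 2.44 in scc2-4 and 0.178 in sth1-2, against 0.752 in wild type at 37 °C. Per kb, wild-type COX1 was at 0.0751 of the nuclear median, COB at 0.0750, COX3 at 0.111 and VAR1 at 0.0188. The 2 tables were normalised separately and hold different libraries, so temperature and table cannot be told apart between the 12.6 of COX1 at 30 °C and the 0.752 at 37 °C. VAR1 made up 1.33% of the 8 genes' pairs in wild type at 37 °C (1.03 to 1.69).

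RSC is the essential chromatin remodeller of yeast, with Sth1 as its ATPase and Rsc8 as a core subunit. Both RSC alleles had less mitochondrial signal than wild type at the same temperature. In rsc8-21, COX1 had 301 pairs and was 3.31-fold lower (2.94 to 3.74), and COB had 182 pairs and was 3.03-fold lower (2.60 to 3.56). In sth1-2, COX1 had 206 pairs and was 4.22-fold lower (3.66 to 4.89), and COB had 132 and was 3.65-fold lower (3.05 to 4.40). The counts were 8 of 8 past 2-fold lower in both, against 1.38% of 6511 nuclear genes in rsc8-21 and 2.37% in sth1-2. Those nuclear genes had a mean of at least 20 pairs, a filter not applied to the 8 genes. ATP8 had 3 pairs in each against 25 in wild type, and both of its intervals include no difference (0.947 to 16.1 in rsc8-21 and 0.826 to 14.0 in sth1-2, as fold lower).

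The scc2-4 column went the other way. Scc2 loads cohesin onto DNA. COX1 had 5125 pairs in scc2-4 against 2674 in wild type and was 3.25-fold higher (3.10 to 3.41), COB was 3.07-fold higher (2.88 to 3.28) and COX2 2.30-fold higher (1.93 to 2.75). VAR1, with 179 pairs against 67, was 4.53-fold higher (3.40 to 6.09). All 8 genes were past 2-fold higher, against 0.0307% of nuclear genes. In rgr1-100, an allele of the Mediator subunit Med14, the genes lay between -0.21 (COX1) and 0.27 (VAR1) in log2, and 0 of 8 were past 2-fold, against 0.0307% of nuclear genes in either direction. COX1 was there 1.16-fold lower (1.09 to 1.23), and the intervals of the other 7 genes included no difference.

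Long fragments were scarce in the mitochondrial genes. In wild type at 30 °C, COX1 had 2248 long pairs, COB 699, COX3 285, COX2 137, ATP6 130 and VAR1 9, and ATP8 and OLI1 had 0. Per 100 short pairs, that came to 1.78 in COX1 (1.71 to 1.86), 1.26 in COB (1.17 to 1.36), 2.25 in COX3, 1.41 in COX2, 1.63 in ATP6 and 0.935 in VAR1 (0.426 to 1.78). The median nuclear gene had 6.35. All 6 genes with a long pair lay below it, and they also lay below the median of nuclear genes of like length.

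Since longer windows hold more long pairs, each gene was set against the nuclear genes within 20% of its length. COB was 14.1-fold below the median of 36 such genes and below every one of them. COX1 was 12.5-fold below the median of 3, again below all. VAR1 was 7.23-fold below and under all 1446 nuclear genes of its length with short pairs. ATP6 was 2.56-fold, COX2 2.82-fold and COX3 1.95-fold below, which put them at the 7.78th, 5.70th and 13.9th percentile. The long mosaic genes thus stood furthest from nuclear genes of their length. ATP8 and OLI1 are shorter than most windows with long pairs, and nothing was read from their 0.

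Between groups, the long-to-short ratio did not follow the level. COX1 had 0.225 long per 100 short pairs in diamide (0.103 to 0.427), 1.37 in thiolutin, 0.179 in med1d, 1.72 in rtt109d, 1.61 in rnh201d, 0.0968 under the rpd3d label (0.0464 to 0.178), 0.420 under the top1d label, 0.305 in H4d4-14, 1.28 in H4K16Q and 1.23 in H4R23A, against 1.78 in wild type. Diamide, med1d, rpd3d, top1d and H4d4-14 were low. Thiolutin, whose COX1 level was the lowest of the 30 °C table but for ssu72-2, was close to wild type, and rpd3d, whose level was close to wild type, was lowest.

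**Figure D5:**
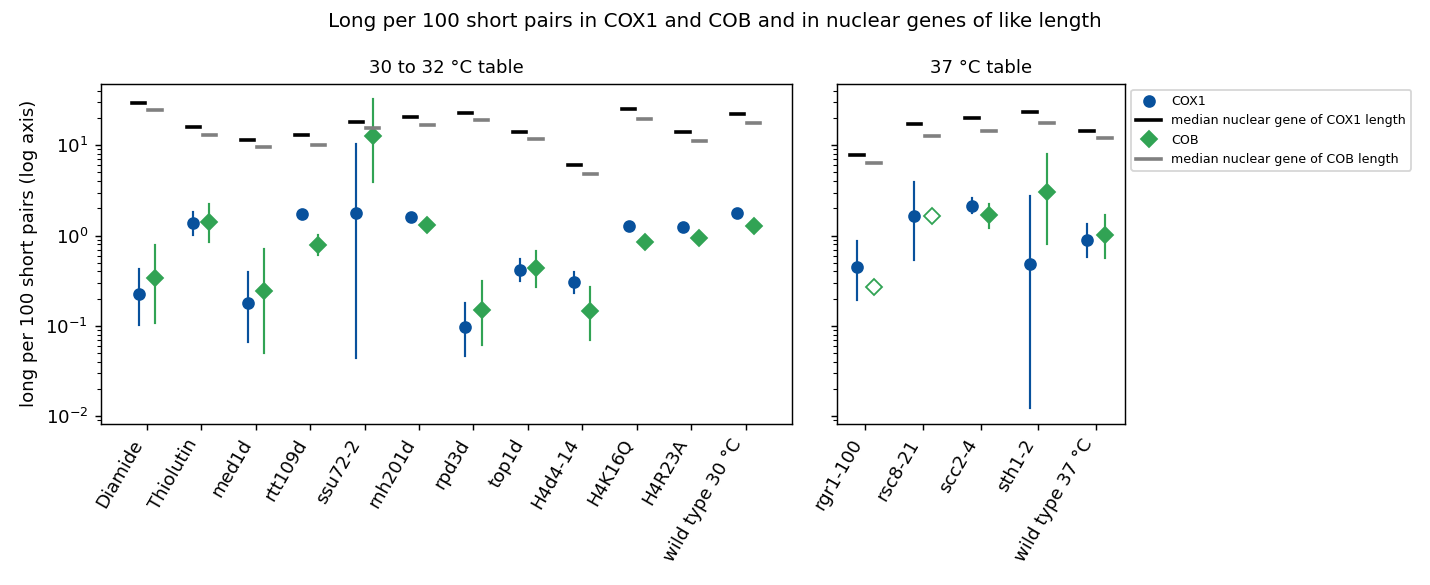
Long per 100 short pairs (log axis) in COX1 and COB by pooled column, with exact 95% intervals, and the medians of nuclear genes of like length as bars. Open symbols are limits at 0 long pairs. COX1 lies under its bar in all 17 columns, from 0.0968 against 22.8 under the rpd3d label to 1.72 against 13.1 in rtt109d.

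The nuclear median of this ratio also moved, to 9.75 in diamide and 1.89 in H4d4-14 against 6.35 in wild type, so differences were taken relative to it. On that scale, COX1 was lower by -4.25 in log2 in rpd3d (-5.14 to -3.35), by -3.61 in diamide (-4.55 to -2.66), by -2.43 in med1d (-3.59 to -1.28), by -1.40 in top1d (-1.80 to -0.997), by -0.80 in H4d4-14 (-1.19 to -0.41) and by -0.45 in H4K16Q (-0.57 to -0.33). In H4R23A it was higher by 0.19 (0.09 to 0.29) on that scale only. The ratio of COX1 itself was lower there, at 1.23 against 1.78 in wild type, and the nuclear median was 3.85 against 6.35. COB was lower by -3.11 in rpd3d (-4.18 to -2.03) and by -2.53 in diamide (-3.80 to -1.26). In med1d COB had 3 long pairs, and its interval of -3.14 to 0.14 includes no difference. COX1 in rtt109d came out higher by 0.78 (0.62 to 0.95), where the nuclear median was 3.55 against 6.35 in wild type. The pairs gained with 1 stretch carried that value. The last stretch of COX1, past the AI5_ALPHA window, added 224 of its 348 long pairs in rtt109d, against 349 of 2248 in wild type. In the stretches before it, COX1 had 0.761 long per 100 short pairs in rtt109d and 1.85 in wild type, and was lower by -0.45 relative to nuclear genes (-0.71 to -0.19). Over the genes with long pairs, the median difference in rtt109d was -0.05. Without the last stretch, COX1 remained lower relative to nuclear genes in diamide, med1d, rpd3d, top1d, H4d4-14 and H4K16Q. Relative to nuclear genes it remained higher in H4R23A. None of these intervals includes 0. The interval of COX1 in thiolutin (-0.60 to 0.23) and in rnh201d (-0.17 to 0.10) includes no difference.

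The 37 °C columns and ssu72-2 held few long pairs. COX1 had 8 in rgr1-100, 5 in rsc8-21, 110 in scc2-4 and 1 in sth1-2, against 24 in wild type at 37 °C. Its ratio was higher in scc2-4 than in wild type by 0.84 in log2 relative to nuclear genes (0.20 to 1.49). In ssu72-2, COB had 5 long to 39 short pairs, or 12.8 per 100 (3.94 to 32.55), where the median nuclear gene of its length had 15.6. All 5 long pairs were gained with the last stretch of COB, which added 8 of its short pairs. COX1 had 1 long to 56 short pairs in ssu72-2. The depth there did not allow a comparison of the other genes.

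The deposited 2D-normalised score, on a log2 scale, was below 0 for all 6 scored mitochondrial genes in the 12 columns of the 30 °C table, whereas the nuclear median lay between -0.254 and 0.207. In wild type, it was -3.84 for COB, -2.72 for COX1, -1.68 for VAR1, -1.24 for COX2, -1.02 for ATP6 and -1.004 for COX3. COB and COX1 lay below the lowest of 4732 nuclear genes, which had -2.29. COX1 reached -6.86 in diamide and -6.79 in rpd3d, on 9 and 10 long pairs. It was nearest 0 at -0.597 in H4R23A and -0.862 in H4K16Q. Some of the scores below 0 rest on 0 long pairs, among them ATP6, COX2 and VAR1 in diamide. VAR1 in ssu72-2 has a score of -3.11 on 0 long and 0 short pairs. At 37 °C, ATP6 (0.572), COX2 (0.676) and VAR1 (0.513) were above 0 in scc2-4, as were ATP6 (0.0204) and COX2 (1.006) in rsc8-21, on 9 or fewer long pairs each. ATP8 and OLI1 are listed at 0 in the 30 °C table and have no score in the other. The score is built from the long and short signals above and is no separate measurement.

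The nuclear genes whose products work with these proteins showed small differences in short signal. For the nuclear subunits of complex IV (9 genes, COX4 to COX13), the median log2 difference in short signal over the 15 comparisons lay between -0.14 (rsc8-21) and 0.26 (scc2-4), and no value was past 2-fold. The medians of the 9 nuclear genes of complex III lay between -0.006 and 0.14 and those of the 15 of ATP synthase between -0.07 and 0.14, again with none past 2-fold. The 10 genes for upkeep and transcription of mitochondrial DNA, of which 9 passed the filter, had medians between -0.32 (sth1-2) and 0.08, with none past 2-fold. Over all nuclear genes, between 0.0307% (rgr1-100) and 3.53% (sth1-2) were past 2-fold in either direction. Among the 16 translation activators and mRNA factors, CBP6 was higher by 1.18 in sth1-2, where 1.17% of nuclear genes were past 2-fold higher. Of the 66 genes for mitochondrial ribosomal proteins, 2 were past 2-fold lower, both in sth1-2, with MRP49 lowest at -1.25, against 2.37% of nuclear genes there, so the count is near the background.

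By Pearson correlation over the 12 columns of the 30 °C table, the nuclear genes most like the mean log2 level of the 8 genes were YLR296W (0.959), OCH1 (0.941), YCH1 (0.932), RGR1 (0.926) and YRM1 (0.924). Their levels spanned between 0.25 (YRM1) and 1.69 (YLR296W) in log2, against 9.68 for the mitochondrial mean. Without the ssu72-2 column, the 5 most alike were API2, YPP1, NUP188, YPR097W and YLR111W, and none of the first 5 was among them. The levels of this second set spanned between 0.26 (YPP1) and 3.40 (YLR111W) in log2, with API2 at 3.27. The mitochondrial mean spanned 4.59 over the same columns. The columns differ in depth and each level is scaled to the nuclear median of its own column, and these values are a description.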

How the data were processed

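The authors deposited a long and a short signal per gene in 2 workbooks, and a 2D-normalised score that its values place on a log2 scale. Columns were matched to groups by column name against the sample titles, and each was taken to pool all libraries of its group. Bowtie2, CASAVA 1.8.2 and the sacCer3 build stand in the submitters' processing notes. How pairs were counted per gene is not stated there. Within a column, 100% of deposited signal values were whole multiples of 1 step (within 0.1), which was taken as 1 read pair. Signals were divided by that step and by the median of 6577 nuclear genes. With 1 pooled column per group no count model could be fitted, so differences are past or short of 2-fold. Nuclear genes needed a mean of 20 pairs, and the 8 genes were not filtered. Fold intervals are exact binomial, level intervals exact Poisson, and 0 pairs are read as at most 3 pairs. Intervals on long-to-short differences are normal approximations on the log2 scale and are rough where long pairs are few. Step recovery was tested on simulated data. A simulated rise well past 2-fold was recovered, but it was placed only in well-covered genes. Calls near 2-fold, sparse genes and false calls were not tested. Python 3.11.15, numpy 2.4.6, pandas 2.3.3 and scipy 1.17.1 were used, and names and spans came from RefSeq R64. All 8 genes are named, and from other lists the extremes. The genes and lists were chosen with earlier results of these data known. The deposited regions depleted of nucleosomes and domain boundaries list 16 chromosomes and no mitochondrial rows, so the test planned on them was not run. No sequences are shown.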

Additional observations from a re-analysis of the deposited data

How the results depend on the processing

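With column totals or summed nuclear pairs as scaling, or 1 pair added to each value, the count of genes past 2-fold was the same in 15 of 15 comparisons. Without COX1 and COB, it moved only by the genes left out. With the mean over all rows as scaling, the median level of the 8 genes in wild type was 0.683 at 30 °C (0.882 by the nuclear median) and 0.0469 at 37 °C (0.0585). With the sheets of the 37 °C table as named, that median was 0.0034, the genes past 2-fold lower numbered 1 in rgr1-100, 2 in rsc8-21 and 2 in sth1-2, and 0 genes lay below nuclear genes in long per short pairs, because long and short are then exchanged. RefSeq spans in place of table lengths, chosen after seeing the data, gave a median level per kb of 1.02 in wild type against 1.06. The order of the genes changed, with OLI1 at 1.065, above ATP6 (1.037), COX1 (0.997) and COB (0.792). The median log2 difference over the 8 genes kept its sign in 14 of 15 comparisons without COX1 and COB, the exception being rgr1-100, and in 15 of 15 from summed pairs. The long-to-short difference relative to nuclear genes of like length kept its sign in 14 of 15. From summed pairs it kept its sign in 13 of 15, the exceptions being rtt109d (0.55 from summed pairs, -0.05 by the median) and rnh201d (0.029 and -0.036). Without the last stretch of COX1, chosen after seeing the data, its own difference kept its sign in 12 of 14, the exceptions being rtt109d and ssu72-2 (0.22 without it, -0.04 with it, on 1 long pair). Coding length could not be used, since only spans were given. Pooled columns do not allow single libraries to be left out, so how far 1 library decides a column is unknown. No paired analysis was possible because each group is 1 pooled column. Genes with under 10 pairs, in ssu72-2, rsc8-21 and sth1-2 and for ATP8 in diamide, thiolutin, med1d and top1d, have wide intervals.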
